A study of Mus spretus with 8 samples.

Results

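Slc25a4 encodes the ADP/ATP carrier of the inner mitochondrial membrane that predominates in heart and skeletal muscle. It was described here with 7 related carriers and pores in livers of mice fed p,p'-DDE, a stable metabolite of the insecticide DDT. The 8 genes were picked by name, and the differences between DDE and control livers in these data were already known when they were picked, so their own differences, and the counts of their called probes, are given as a description that supports nothing. The annotation table held a probe for 6 of the 8 genes, of 22471 genes in all. These were 16 probes of 42957, of which 10 belonged to Slc25a4, 2 to Slc25a3 and 1 each to Slc25a5, Vdac1, Vdac2 and Vdac3. Slc25a31 and Ucp2 had 0 probes under these symbols and were not analysed here.

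The livers came from 8 male Mus spretus mice of the inbred SPRET/EiJ strain, aged 7 weeks at the start. In the DDE group, 4 mice ate Harlan feed for 30 days to which p,p'-DDE had been added at 450 mg/kg in corn oil, and in the control group 4 mice ate Harlan feed with corn oil. The labels name no transgene or deletion in either group. Each liver was measured on its own 1-colour array, and every value below is a log2 signal unless it is named as a fold or a difference, with n = 4 mice per group.

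Mitochondria make ATP in the matrix and export it through the ADP/ATP carriers, which swap it for ADP across the inner membrane. The phosphate carrier brings in the phosphate for the same reaction, and the pores of the outer membrane, the voltage-dependent anion channels, let nucleotides and other metabolites pass to and from the cytosol. Of the ADP/ATP carriers in mice, Slc25a5 is the form typical of liver and many other tissues, and Slc25a31 is found mainly in male germ cells. Uncoupling protein 2, the product of Ucp2, belongs to the same carrier family.

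All 8 arrays had the same highest value, 16, and medians of 7.46 or 7.47. Their background levels, taken from probes of olfactory and vomeronasal receptors, lay between 7.55 and 7.81. Stained areas, where neighbouring spots deviated together, covered 0.521% (DDE 1) to 9.50% (control 4) of the spots. Hepatocyte markers fitted the labelled tissue, as the albumin gene Alb read between 15.89 and 16 on every array. Skeletal muscle transcripts were also measured above background in every liver.

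Slc25a4 (Entrez Gene 11739) had lower signals in all 4 DDE livers than in any control when its 10 probes were averaged. The controls 1 to 4 had 12.23, 12.35, 11.59 and 12.42, and the DDE livers 1 to 4 had 10.21, 10.66, 10.25 and 11.21. The groups did not overlap, and the gap between control 3, the lowest control, and DDE 4, the highest DDE liver, was 0.38. The group means were 12.15 ± 0.38 (SD, n = 4) and 10.58 ± 0.47 (SD, n = 4), a difference of -1.57 or 2.96-fold. The difference was larger than the spread between mice, whose pooled SD was 0.42.

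**Figure D1:**
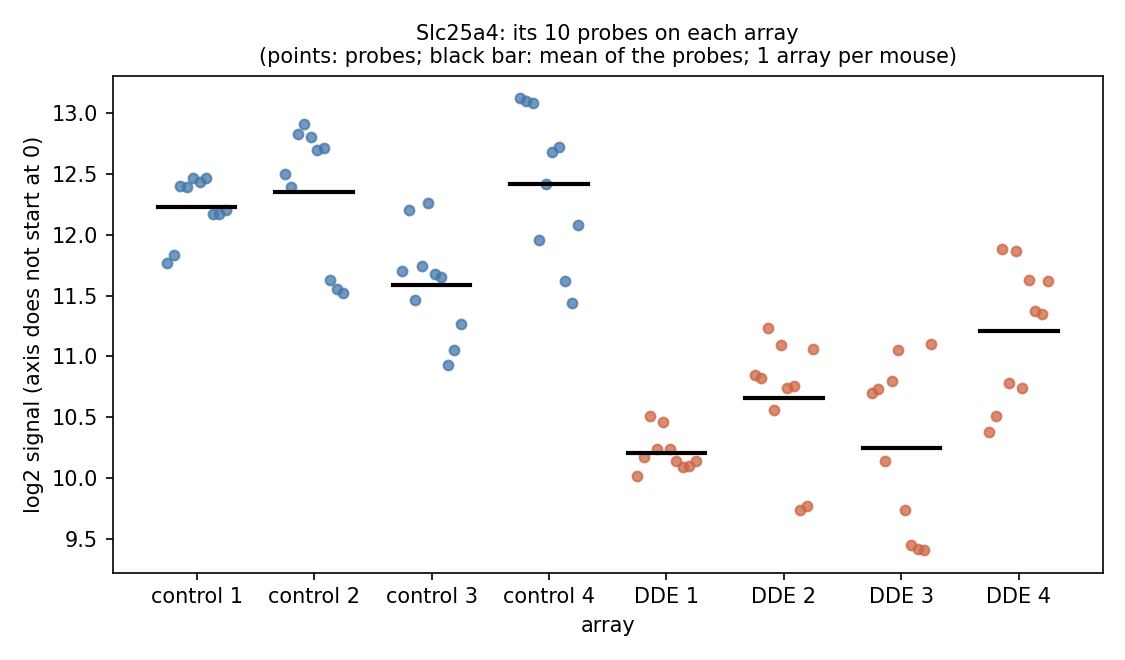
Log2 signal of the 10 Slc25a4 probes (points) on each of the 8 arrays, 1 array per mouse, with the mean of the probes as a black bar. The bars of the DDE livers lie between 10.21 and 11.21, all below the control bars (11.59 to 12.42), while the probes of 1 array spread over 0.49 to 1.69 log2 units.

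Each of the 10 probes had a lower mean after DDE, with differences from -0.79 (1.73-fold) to -2.01 (4.02-fold) and a median of -1.58. At 6 probes the groups did not overlap and at 4 they did; of all 42957 probes, 3.80% were lower after DDE with no overlap. In the limma fit over all probes, 4 of the 10 were called lower at an adjusted p under 0.05, where 0.661% of all probes were called lower. Both counts describe the values that led to the choice of the gene. All 80 Slc25a4 values were above background, and 4 of them lay on stained areas, all in DDE livers. With stained spots left out, the mean difference was -1.62 and 6 probes were called.

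The number of called probes depended on single livers, as did the count over all probes, while the difference itself did not. None of the 10 was called without DDE 1, without DDE 2 or without DDE 3, and 7 were called without DDE 4. Without control 1 and without control 2, 1 was called, with 2 without control 3 and 4 without control 4. Of all 42957 probes, 1289 were called in either direction in the main fit. That count was 505, 332, 533 and 1596 without DDE 1, 2, 3 and 4 in turn. Without control 1, 2, 3 and 4 in turn it was 782, 387, 534 and 1193. Across these 8 fits the mean difference stayed between -1.77 and -1.44.

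The 10 probes agreed less with each other than the probes of most comparable genes. Probe sequences were not used here, so the probes may be repeats of 1 sequence, and their number adds no mice. The SD over the 10 probes of 1 array was 0.54 at the median array, lowest in DDE 1 (0.16) and highest in DDE 3 (0.70). Of the 92 genes with 10 probes and every value above background, 2 had a larger SD over probes than Slc25a4, and the median over these genes was 0.34. At the median array, the 2 pairs of spots within 10 rows and 10 columns agreed better than any pair farther apart, of which the closest differed by 0.085. With 2 such pairs this is a description only. The pair 10 rows apart in 1 column of the layout differed by 0.18 at most over the 8 arrays, with a median of 0.025. For the 43 pairs farther apart the median difference was 0.43. The other near pair differed by 0.04 at the median and by 0.89 at most, in DDE 4, where 1 of its spots lay on a stained area. The 3 probes in rows 488 to 504 had the 3 lowest control means (11.55, 11.59 and 11.77), and their differences were -1.40, -1.43 and -0.79.

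Slc25a5, the ADP/ATP carrier typical of liver, was slightly lower in all 4 DDE livers at its only probe. The controls had 13.14, 13.16, 13.27 and 13.05, and the DDE livers had 12.84, 12.93, 12.98 and 12.52. The groups did not overlap, but the lowest control and the highest DDE liver were only 0.07 apart, and the control 4 spot lay on a stained area. The means were 13.16 ± 0.090 and 12.82 ± 0.21 (SD, n = 4), a difference of -0.34 or 1.26-fold.

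The phosphate carrier Slc25a3 had overlapping groups at both of its probes. At the brighter probe the controls had 12.98, 12.89, 12.67 and 12.09 and the DDE livers 12.46, 12.49, 12.47 and 12.35, a difference of -0.21 between means of 12.66 ± 0.40 and 12.44 ± 0.063 (SD, n = 4). The DDE values thus lay inside the control range, and control 4 was the lowest of all 8. At the dimmer probe the controls had 10.59, 10.48, 10.49 and 9.11 and the DDE livers 10.13, 8.91, 10.18 and 10.27, a difference of -0.29. Here 1 array of each group, control 4 and DDE 2, stood more than 1 log2 unit below the rest of its group.

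None of the outer-membrane pores separated the groups. Vdac1, the most abundant of these channels in many tissues, had 14.18, 14.58, 14.61 and 14.20 in controls and 14.11, 14.30, 13.61 and 14.28 after DDE, a difference of -0.32. DDE 3 was the lowest of the 8 livers, DDE 1 lay just below the control range, and DDE 2 and DDE 4 lay inside it. Vdac2, which also holds the apoptosis protein BAK at the outer membrane, had 13.10, 12.98, 12.69 and 12.13 in controls and 13.10, 13.00, 13.05 and 13.07 after DDE, a difference of 0.33. The DDE livers were close together and the spread was in the controls, with control 4 lowest. Vdac3 had 13.43, 13.51, 13.05 and 13.00 in controls and 13.20, 12.69, 13.51 and 13.17 after DDE, a difference of -0.10, with a range of -0.23 to 0.05 over the alternatives, of which 1, without DDE 2, gave a higher mean after DDE.

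**Figure D2:**
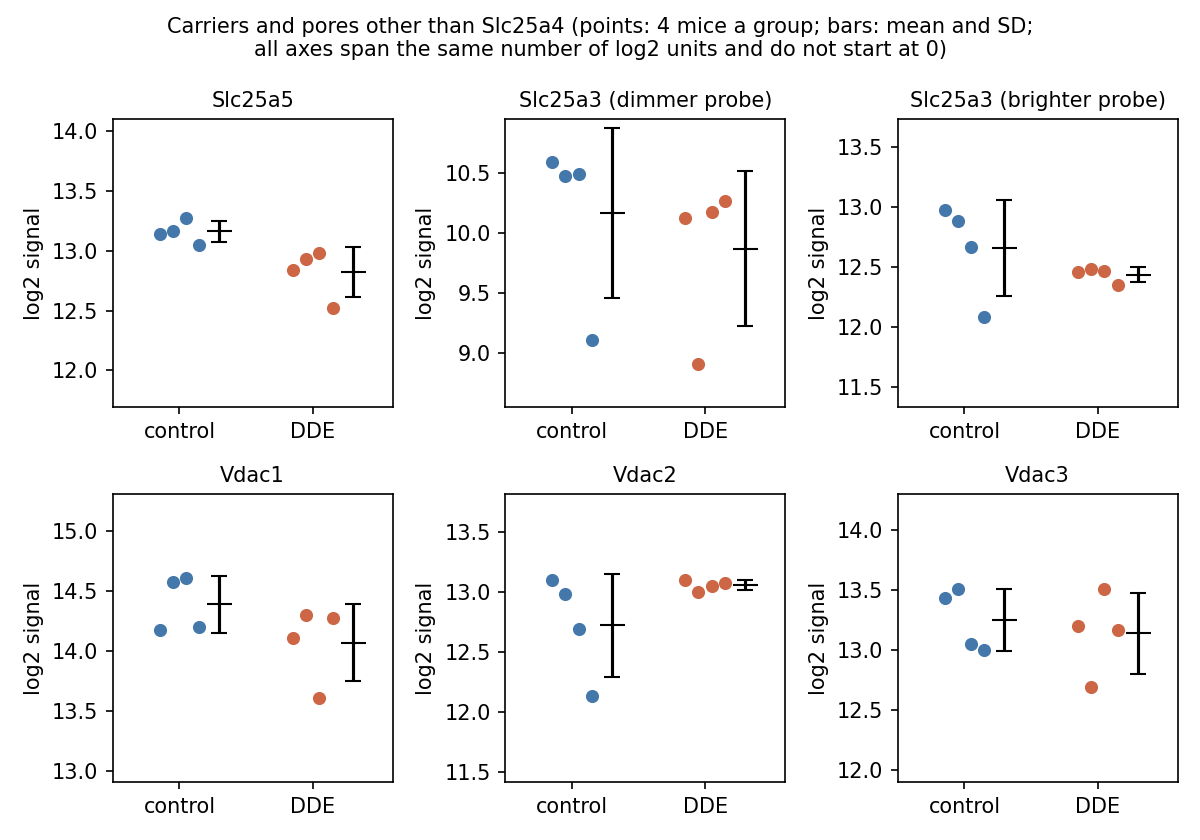
Log2 signal of the 6 probes of Slc25a5, Slc25a3, Vdac1, Vdac2 and Vdac3 in 4 control and 4 DDE livers (points), with mean and SD as bars. Every panel spans the same number of log2 units, and Slc25a5 is the only panel in which the groups do not overlap (difference -0.34).

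Of the 6 probes of these 5 genes, 0 were called in the limma fit, against 3.00% of all probes in either direction, and 1, that of Slc25a5, had an unadjusted p under 0.05. The groups did not overlap at 1 of the 6, where 11.8% of all probes had no overlap in either direction. These counts too are a description. The differences of the 5 genes lay between -0.34 and 0.33, at most 1.26-fold, beside 2.96-fold for Slc25a4. Single arrays moved some of them by more than 1.5 times: Vdac2 differed by 0.13 without control 4, Vdac1 by -0.16 without DDE 3, and Slc25a3 by -0.11 without control 1, -0.14 without control 2 and -0.40 without control 4.

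The 5 genes whose values over the 8 livers were most like those of Slc25a4 were Ak1, Slc25a25, Fabp3, Ldhb and Myh1. Likeness was the root mean square difference between values centred on each gene's own mean over the 8 livers. It was taken for 7826 genes above background on all arrays, with the members and predicted or unnamed transcripts left out. This difference was 0.26 for Ak1, 0.31 for Slc25a25, 0.33 for Fabp3 and Ldhb and 0.35 for Myh1. Its median over all these genes was 1.03. Ak1 encodes the adenylate kinase abundant in muscle, which balances ATP, ADP and AMP. Fabp3 encodes the fatty acid binding protein of heart and muscle, Ldhb the heart form of lactate dehydrogenase and Myh1 a myosin heavy chain of fast skeletal muscle fibres. Ak1 had 10.33, 10.61, 9.91 and 10.45 in controls and 8.81, 9.39, 8.97 and 9.78 after DDE. Its lowest control was control 3 and its highest DDE liver DDE 4, as for Slc25a4. The 5 genes were picked for this likeness, which includes the difference between the groups. Their lower values after DDE and their order of livers therefore follow from the choice and support nothing. Myh1 had 11.34, 11.84, 11.36 and 11.76 in controls and 9.16, 10.42, 9.81 and 9.94 after DDE, and DDE 1 was the lowest.

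Most skeletal muscle markers had lower means after DDE, but none passed the test. Of 16 muscle markers, 13 had lower means, 0 passed the limma test, the unadjusted p was under 0.05 for 5 (all lower), and the median difference was -0.79, against 0.015 over the brightest probes of all genes. Of all genes, 3.35% were called at their brightest probe. The count of called muscle markers was 4 without DDE 4, all lower, and lay between 0 and 4 over the alternatives. Tnnc2, the calcium sensor of fast skeletal muscle, had 14.19, 14.71, 14.27 and 13.98 in controls and 11.46, 12.60, 11.33 and 13.47 after DDE (limma adjusted p = 0.0765, and 0.0221 without DDE 4, within 0.0221 to 0.184 over its alternatives). The groups did not overlap, and DDE 4 was nearest to the controls. Mb, the gene of myoglobin, had 12.42, 12.60, 12.52 and 12.42 in controls and 10.44, 11.59, 11.90 and 11.92 after DDE, again without overlap. Its DDE 3 spot lay on a stained area. Acta1, the skeletal muscle actin gene, had 13.38, 13.67, 12.92 and 13.28 in controls and 11.34, 12.57, 11.89 and 13.46 after DDE, so DDE 4 lay inside the control range.

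The summed signal of the 16 muscle markers, on the log2 scale, ranged from 15.77 to 16.14 in controls and from 13.66 (DDE 1) to 15.99 (DDE 4) after DDE. Stained areas touched these sums. In DDE 4 the spots of Des (13.65), Atp2a1 (12.62) and Ckm lay on stained areas, and in DDE 2 that of Tnni2 (14.53), its highest value on any array. Without the 3 markers stained in DDE 4, the sum of DDE 4 was 15.45 and the controls had 15.71 to 16.10. Over the 8 markers with no stained spot on any array, the controls had 14.98 to 15.49 and the DDE livers 1 to 4 had 12.94, 13.93, 13.29 and 14.82. In both of these sums, chosen after seeing the data, all 4 DDE livers lay below every control. DDE 4 was nearer to the controls in the second sum than the other DDE livers. Of the 4 markers of the second sum above background on all arrays, only 1, Tnnc2, lay below its own lowest control in DDE 4. Acta1, Myl1 and Pvalb lay inside their control ranges there, so the DDE 4 sum does not show a fall of these markers as a set. Mylpf and the heart marker Tnnt2 were above background on none of the arrays. The heart marker Myh6 was so only in control 3 and control 4, where its spots lay on stained areas.

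For DDE 4 the median marker depended on which markers were kept. Over the 11 markers above background on all arrays it was 11.98, inside the control range of 11.38 to 12.10. Over the 8 of these not stained in DDE 4 it was 11.96, below the control range of 12.20 to 12.52, and 6 of the 8 lay below their own control mean. Over the 4 with no stained spot on any array, Acta1, Myl1, Tnnc2 and Pvalb, it was 12.71, level with the highest control. Among the 11, 6 were within the 1% of genes most like Slc25a4. Myh4 and Tnnt3 ranked 141 and 150 of 7826 genes, and Tnni2, Atp2a1 and Des, with the stained spots named above, ranked 4221, 7548 and 7719. High-ranked markers had stained spots too, namely Mb and Ckm among the 6, and Myh4 and Tnnt3. Because likeness includes the difference between the groups, genes that were lower after DDE tend to rank high. The part of muscle transcripts in the Slc25a4 difference was not tested. In whole liver, fewer cells of a type and less RNA per cell cannot be told apart. Where the skeletal muscle transcripts in these samples came from was not tested either.

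**Figure D3:**
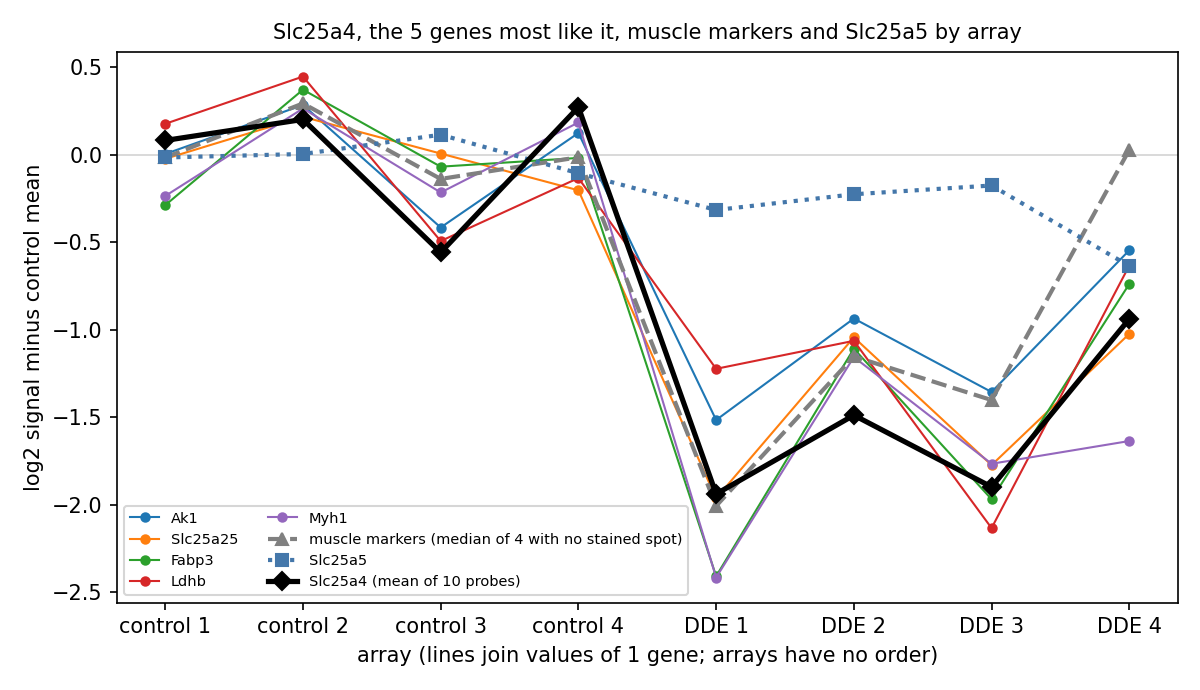
Log2 signal minus the control mean on each of the 8 arrays for Slc25a4 (black, mean of 10 probes), the 5 genes most like it, the median of 4 muscle markers with no stained spot on any array (grey, dashed) and Slc25a5 (blue, dotted). Slc25a4 and the 5 genes, picked for likeness to it with the group difference included, lie below their control mean in all 4 DDE livers. The median of the 4 muscle markers is at -2.01, -1.15, -1.40 and 0.03 in DDE 1 to 4 (2 of the 4 lie below their control mean in DDE 4). Slc25a5 stays nearer to 0 than Slc25a4.

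Other carriers of the same family went in both directions. Of 45 measured genes, 2 rose, 2 fell and 41 did not pass (limma, adjusted over all probes), which is 8.89% of the list where 3.35% of all genes were called (2.58% higher and 0.774% lower), and the list's median difference was 0.085. At an unadjusted limma p below 0.05, 11 were higher and 2 were lower. Without DDE 4, 7 were called, of which 5 were higher. Slc25a25, which exchanges ATP-Mg for phosphate and so sets the adenine nucleotide content of the matrix, fell 2.73-fold. It had 13.05, 13.29, 13.08 and 12.87 in controls and 11.11, 12.03, 11.30 and 12.05 after DDE (limma adjusted p = 0.0294). Its groups were far apart at this probe, and its other probe differed by -0.93. The call was lost without DDE 1, DDE 2, DDE 3, control 1, control 2 or control 3 in turn (limma adjusted p = 0.0558 to 0.0862, and 0.0208 to 0.0981 over all alternatives). Of the relatives of Slc25a25 with the same transport, Slc25a24 was between 7.46 and 8.44 on 7 arrays and at 13.18 on control 4, where its spot lay on a stained area, and Slc25a41 was above background on none.

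Slc25a22, a glutamate carrier, fell 2.35-fold, from 11.44 ± 0.19 to 10.21 ± 0.24 (SD, n = 4, limma adjusted p = 0.0119). Slc25a42, which brings coenzyme A into the matrix in exchange for adenine nucleotides, rose 2.22-fold, from 10.79 ± 0.16 to 11.94 ± 0.20 (limma adjusted p = 0.00911). Both calls held in each of the 8 fits without 1 array (limma adjusted p = 0.00781 to 0.066 for Slc25a22 and 0.00434 to 0.0541 for Slc25a42 over all alternatives, above 0.05 with the replicate block alone). Slc25a37, the iron importer mitoferrin 1, rose 3.57-fold (limma adjusted p = 0.0169). The controls read 9.86, 10.03, 10.65 and 10.36, and the DDE livers 11.97, 12.36, 12.40 and 11.52. Its other probe differed by 0.38, and its call was lost without DDE 2 (limma adjusted p = 0.0589) and without control 2 (0.0581), with 0.0072 to 0.0795 over all alternatives.

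Partners of the carrier and the pore at the contact of both membranes held 2 genes of 21 that rose and 0 that fell in the limma fit, where 2.58% of all genes were called higher and 0.774% lower. The count of called genes was 0 without DDE 2, DDE 3, control 2 or control 3, and 1, a rise, without control 1 or control 4. Without DDE 1 it was also 1, but that gene was lower after DDE. The count was 4 without DDE 4, all higher. At an unadjusted limma p below 0.05, 5 were higher and 1 was lower, and the median difference was 0.14. Ppif, the gene of cyclophilin D, which regulates the permeability transition pore, rose 1.77-fold. It had 9.68, 9.58, 9.74 and 9.69 in controls and 10.26, 10.80, 10.78 and 10.16 after DDE (limma adjusted p = 0.0471). The controls lay close together below all DDE livers, but the call held in only 1 of the 8 fits without 1 array, that without DDE 4. Mcl1, an anti-apoptotic protein of the outer membrane, rose 2.40-fold (limma adjusted p = 0.0381), a call lost without DDE 1, DDE 2, DDE 3, control 2 or control 3 (limma adjusted p = 0.0915 to 0.113, and 0.0163 to 0.113 over all alternatives).

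At the brightest probe, 0 genes of ATP synthase and of the import of carriers and pores passed the limma test, where 3.35% of all genes did. The count was also 0 for regulators of mitochondrial gene expression and for kinases of adenine nucleotides. Without DDE 4 the counts were 3 for import, 1 for regulators, 2 for kinases and 0 for ATP synthase, which had 0 under every alternative. Away from the brightest probe, 1 probe each was called for the import genes Tomm20 (difference 1.36) and Timm8a1 (0.965). The same held for the regulator Tfam, whose other probes had a median difference of 0.54. ATP synthase, which makes the ATP that the carriers export, had an unadjusted p below 0.05 for 2 of 20 genes, both higher, and a median difference of -0.025. Its smallest p was that of Atp5c1 (difference 0.60, limma adjusted p = 0.201), whose other probe differed by -0.63. For the import of carriers and pores, 8 of 28 had an unadjusted p below 0.05, all higher, with a median of 0.24. Timm13, a chaperone that guides membrane proteins between both membranes, differed by 1.63 (limma adjusted p = 0.0505, with 2 spots on stained areas). Without stained spots it differed by 1.27 (limma adjusted p = 0.148, within 0.0287 to 0.148 over all alternatives). Among 16 regulators, 4 higher and 1 lower had an unadjusted p below 0.05, the median was 0.15, and Gabpb1, a subunit of the GA-binding protein, differed by 0.86 (limma adjusted p = 0.0602, and 0.0356 to 0.746 over its alternatives). Its other probe differed by -0.51, and the mean of its probes by 0.18. Of 19 kinases and other enzymes of adenine nucleotides, 1 higher and 2 lower had an unadjusted p below 0.05, the median was 0.095, and the smallest p was that of Ak1 (-1.09, limma adjusted p = 0.07).

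**Figure D4:**
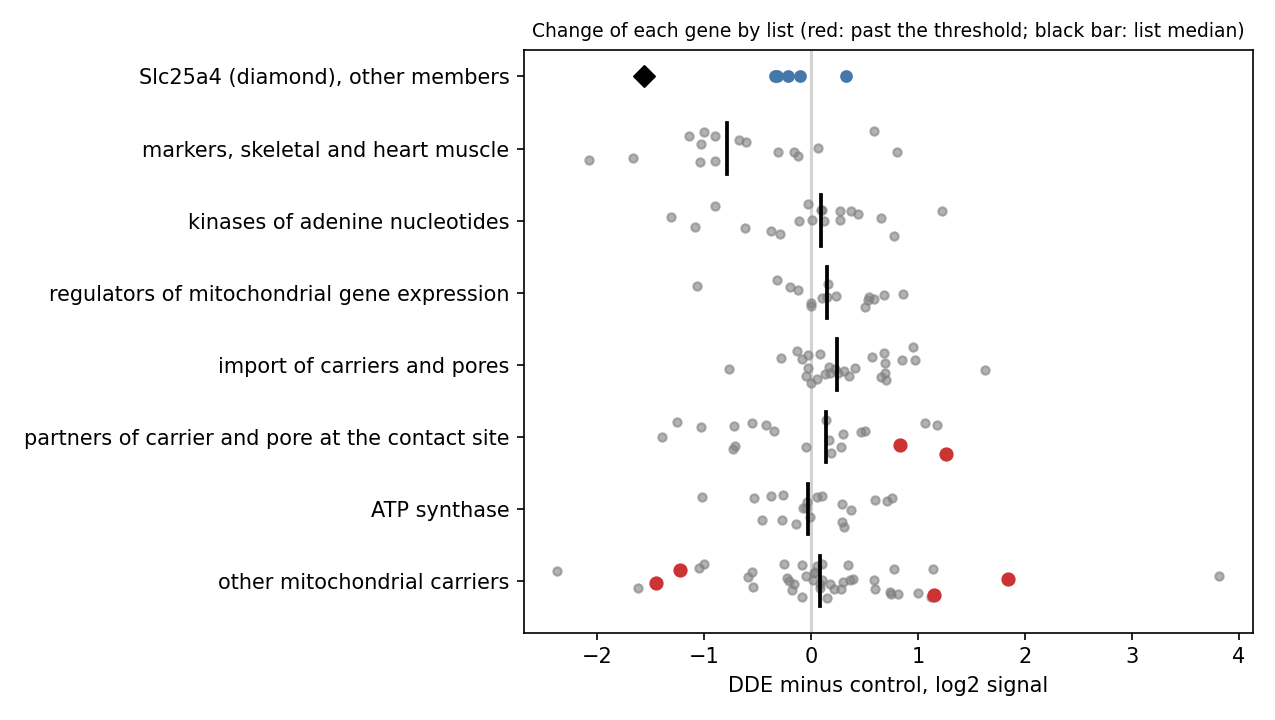
Difference between DDE and control means (log2 signal) of every measured gene of 6 pathway lists and of the muscle markers, with the list median as a black bar and genes past the limma threshold in red. Slc25a4 (diamond, -1.57) lies apart from the other 5 members (-0.34 to 0.33), and 4 carriers and 2 contact site partners are red.

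Of the other 9 marker lists, which cover hepatocytes, macrophages, lymphocytes, stellate, endothelial, bile duct, brown fat, germ and red blood cells, 1 gene of 48 rose and 0 fell in the limma fit, where 2.58% of all genes were called higher and 0.774% lower. The called gene was Reln, a marker of stellate cells, which exceeded background in 2 DDE livers and in no control. An unadjusted limma p below 0.05 was found for 6 higher and 2 lower genes, and 4 of the higher and 1 of the lower were stellate cell markers. On all arrays, 0 bile duct markers and 1 marker each of lymphocytes, brown fat and germ cells exceeded background, so these lists say little.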

How the data were processed

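Total RNA of 8 livers was labelled with Cy3 and hybridised to 1-colour arrays, per the labels' protocols. The deposited values are log2 signals normalized by the authors. How they were scanned, background-corrected, normalized and filtered is not given in the sources used here. The values were used as deposited, and the number of arrays limits the precision.

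Probes were named by the supplied annotation table (33009 with 1 symbol, 0 with several, 9948 with none). The brightest probe stood for a gene in the lists. Probes were tested with limma 3.58.1 in R 4.3.3, DDE against control, with Benjamini-Hochberg adjustment over 42957 probes, two-sided, at 0.05. The procedure was tested on simulated data. The background of an array was the 0.95 quantile of 1638 receptor probes. A spot was stained where the median deviation in 7 rows by 5 columns was beyond 0.3.

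The members and lists were chosen with earlier results of these data known. The rule for named genes took all members, the up to 4 largest called changes of a list or else its smallest p, and the 5 genes most like Slc25a4; other genes were chosen after their values were seen, and of marker lists only called genes and muscle are named. The main fit did not pair the samples by replicate number. Deviations of arrays with the same number correlated between -0.011 and 0.075 (4 pairs, across probes), which cannot decide whether they were paired. The stained share rose with the number in both groups, at 1.16, 4.25, 5.45 and 9.50% in controls 1 to 4. In DDE 1 to 4 it was 0.521, 3.03, 4.43 and 7.59%. Alternatives were quantile normalization, 75th percentile centring, leaving out the dimmer probes or stained spots, an intensity trend with robust variances, array weights, a replicate block, other summaries of a gene's probes, leaving out each array and, added after seeing the data, leaving out control 4 and DDE 4, or muscle markers with stained spots.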

Additional observations from a re-analysis of the deposited data

Results flagged for a closer look

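The dimmer probe of Slc25a3 had 1 low array in each group. Control 4 read 9.11 where the nearest control had 10.48, a gap of 0.926 of the group's range. DDE 2 read 8.91 where the nearest DDE liver had 10.13, a gap of 0.897 of the range. Neither spot lay on a stained area, and the brighter probe of Slc25a3 read 12.09 in control 4 and 12.49 in DDE 2. Chance puts about 1 in 20 groups past the limit used, and 56 groups of 4 values were examined.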

How the results depend on the processing

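The Slc25a4 difference stayed within 1 SD of its value under all 17 alternatives (-1.77 to -1.44), as did the differences of Slc25a3 (17), Slc25a5, Vdac1, Vdac2 and Vdac3 (16 each). The count of called Slc25a4 probes went from 0 (without DDE 1, DDE 2 or DDE 3) to 8 (array weights). Of all probes, 1289 were called, against 2140 with array weights, 511 with an intensity trend and robust variances, 9 with the replicate block, and 332 (without DDE 2) to 1596 (without DDE 4) without 1 array. The count was also below 1289 by more than 1.5 times without DDE 1 (505), DDE 3 (533), control 1 (782), control 2 (387) and control 3 (534). Of the other carriers, 4 were called, against 7 with array weights, 0 with the replicate block, 7 without control 4 and DDE 4, and 2 (without DDE 2 or control 2) to 7 (without DDE 4) without 1 array. The replicate block left 1 of the 10 Slc25a4 probes and neither Slc25a22 (limma adjusted p = 0.066) nor Slc25a42 (0.0541) called. Atp5c1 turned direction with the mean of its probes (-0.02). The count of called contact site partners, 2, was 0 with the intensity trend and with the replicate block, and that of muscle markers, 0, was 2 without control 4 and DDE 4. For all of these the cause was not tested. Probes near background or at the top of the scale give only bounds on a change.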
